A study of Caenorhabditis elegans with 12 samples.

Results

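The hsp-16 genes of Caenorhabditis elegans encode small heat shock proteins, and 4 of them (hsp-16.1, hsp-16.2, hsp-16.41 and hsp-16.48) are described here. Every probe whose annotated sequence name belongs to one of these genes was taken, which gave 4 of the 19814 genes matched to the array and 5 of its 43603 probes: 1 each for hsp-16.1 (T27E4.8), hsp-16.2 (Y46H3A.3) and hsp-16.48 (T27E4.3), and 2 for hsp-16.41 (Y46H3A.2). The 2 probes of hsp-16.41 are called the bright and the dim probe after the brightness of their spots, which depends on the probe as well as on the transcript. All 5 probes passed the filter on dim probes.

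The study asked how gene expression in adult worms depends on cultivation temperature. It holds 12 single-colour arrays, 3 for each of 4 groups. The groups are daf-2(e1370) worms after 12 h at 25 °C, N2 (Bristol) worms kept at 15 °C, N2 worms after 3 h at 25 °C and N2 worms after 12 h at 25 °C. Every worm was raised at 15 °C on plentiful food, the series text gives the young adult stage as the time of the 12 h shift, and a change of temperature was the only treatment. N2 is the standard wild-type strain, and e1370 is a reduced-function, temperature-sensitive allele of the insulin-like receptor gene daf-2. No daf-2 group at 15 °C or at 3 h was analysed here, so the response of the mutant to the shift itself was not measured.

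Small heat shock proteins bind unfolding proteins and keep them from aggregating until Hsp70 chaperones, which use ATP, can refold them. Transcription of the hsp-16 genes is low in unstressed worms and is switched on by heat through HSF-1, the heat shock transcription factor. DAF-16, the FOXO factor that is held out of the nucleus by DAF-2 signalling, acts with HSF-1 on several small heat shock genes, and a reporter of hsp-16.2 is widely used as a read-out of heat stress in single worms. The genes lie on chromosome V in compact clusters. In the RefSeq gene order hsp-16.2 is the direct neighbour of hsp-16.41, and hsp-16.1 is followed by hsp-16.48, hsp-16.49 and hsp-16.11. Those last 2 genes, near-identical copies of hsp-16.48 and hsp-16.1, have 0 probes on the array. Whether the probes of hsp-16.1 and hsp-16.48 also take up signal from the copies, and whether the hsp-16 probes take up signal from each other's transcripts, was not tested, because the probe sequences were not analysed here.

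The arrays fall into 3 replicate sets, named A, B and 1 in the sample titles, and each set is 1 slide with the groups in the same 4 positions. Group and slide position therefore cannot be told apart. The source names number sets A and 1 alike, so the 3 arrays of a group may be fewer than 3 independent samples, and the p-values then measure a spread that may be partly technical. Probes well above background made up 55.6% to 61.4% of each array in sets A and B, against 80.8% to 84.9% in set 1, which was scanned on another day. Yolk protein and oocyte genes, which mark adult hermaphrodites, gave signal well above background on each of the 12 arrays, as did body wall muscle genes. Of 3 adult cuticle genes, col-19 did so too. The second, rol-6, was well above background on 2 of 3 N2 arrays at 15 °C and on all arrays of the other groups. The third, bli-1, was not tested. Among 6 oocyte and eggshell genes, 3 fell in daf-2 against N2 at 12 h (6.08% of all probes fell). The median log2 change was −0.65, beside −0.13 over all probes. These falls depended on the scaling, for which alternatives are described below. With quantile normalization none of the 3 passed (adjusted p = 0.0855 for rme-2, 0.114 for puf-11 and 0.098 for cbd-1, limma). With centring on the array median rme-2 passed (0.0449), and with normexp cbd-1 did (0.0257). Of 7 embryo genes, 4 rose in N2 at 12 h against 3 h (0.809% of all probes rose, median 1.34). With centring on the array median none of these 4 passed (adjusted p 0.0657 to 0.22, limma). In daf-2 at 12 h against N2 at 15 °C 5 of the 7 rose (19.3%, median 1.17). Of those, vet-6 and end-1 did not pass with the array median (adjusted p = 0.147 and 0.189, limma). In daf-2 against N2 at 12 h 1 rose, where 3278 of 26582 probes did. The mean log2 signal of the embryo genes was −1.29 to −0.70 in daf-2 and, in N2, −2.38 to −1.70 at 15 °C, −2.82 to −2.31 after 3 h and −1.60 to −1.04 after 12 h. At what age each group was sampled was not stated, and the part of embryos or oocytes in the hsp-16 values was not tested. Sperm genes stood apart in set B: the mean log2 signal of 22 of them was −0.48 in the daf-2 array of set B, against 2.04 and 2.19 in those of sets A and 1, and 5.38, 5.27 and 4.76 in the N2 arrays of set B, against 0.85 to 3.52 in those of sets A and 1. All 5 measured targets of DAF-16 rose in daf-2 against N2 after 12 h (3278 of 26582 probes rose), among them sod-3, a superoxide dismutase (log2 change 3.25), and mtl-1, a metallothionein (6.68). The daf-2 transcript had a log2 change of 0.14, which checks nothing, because e1370 is a point mutation.

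Signals are given on the log2 scale after subtraction of the array's 75th percentile, so that a value of 0 lies at that percentile. For hsp-16.2 the signal was 0.34, 0.73 and 1.58 in the daf-2 arrays of sets A, B and 1. In N2 it was −6.08, −2.39 and −3.95 at 15 °C, 2.44, 2.04 and 3.68 after 3 h, and −1.86, −1.83 and −0.54 after 12 h, in the same order of sets. The 4 groups of arrays did not overlap for hsp-16.2: N2 at 15 °C was lowest, followed by N2 after 12 h, daf-2 after 12 h and N2 after 3 h. The set A array at 15 °C was not well above background for this probe, with a processed intensity of 26.1 against an error estimate of 13.4 from the scanner software.

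The dim probe of hsp-16.41, the gene beside hsp-16.2, gave −1.09, −0.76 and 0.18 in daf-2. It gave −6.92, −3.81 and −5.02 in N2 at 15 °C, 1.24, 1.07 and 2.76 after 3 h, and −3.32, −3.09 and −1.53 after 12 h. This was the order of groups seen for hsp-16.2, again without overlap, and again set A at 15 °C was not well above background (intensity 14.5, error estimate 14.4).

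The bright probe of hsp-16.41 gave 1.88, 2.25 and 2.99 in daf-2. It gave −1.58, −0.20 and −0.12 in N2 at 15 °C, 3.84, 3.76 and 5.25 after 3 h, and 1.63, 1.57 and 2.61 after 12 h. Here N2 at 15 °C was lowest and N2 after 3 h highest, but the daf-2 arrays and the N2 arrays at 12 h overlapped.

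For hsp-16.1 the daf-2 arrays had 1.69, 1.82 and 2.20. The N2 arrays had −0.33, 0.67 and 0.12 at 15 °C, 4.38, 4.76 and 4.95 after 3 h, and 2.45, 2.58 and 2.71 after 12 h. For this gene daf-2 lay below N2 at 12 h, without overlap, where for hsp-16.2 it lay above.

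For hsp-16.48, the neighbour of hsp-16.1, the daf-2 arrays had 1.99, 1.89 and 2.84. The N2 arrays had −1.14, 0.82 and 0.08 at 15 °C, 4.36, 4.43 and 5.01 after 3 h, and 2.14, 2.23 and 2.82 after 12 h. The daf-2 arrays overlapped the N2 arrays at 12 h, and the other groups stood apart.

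**Figure D1:**
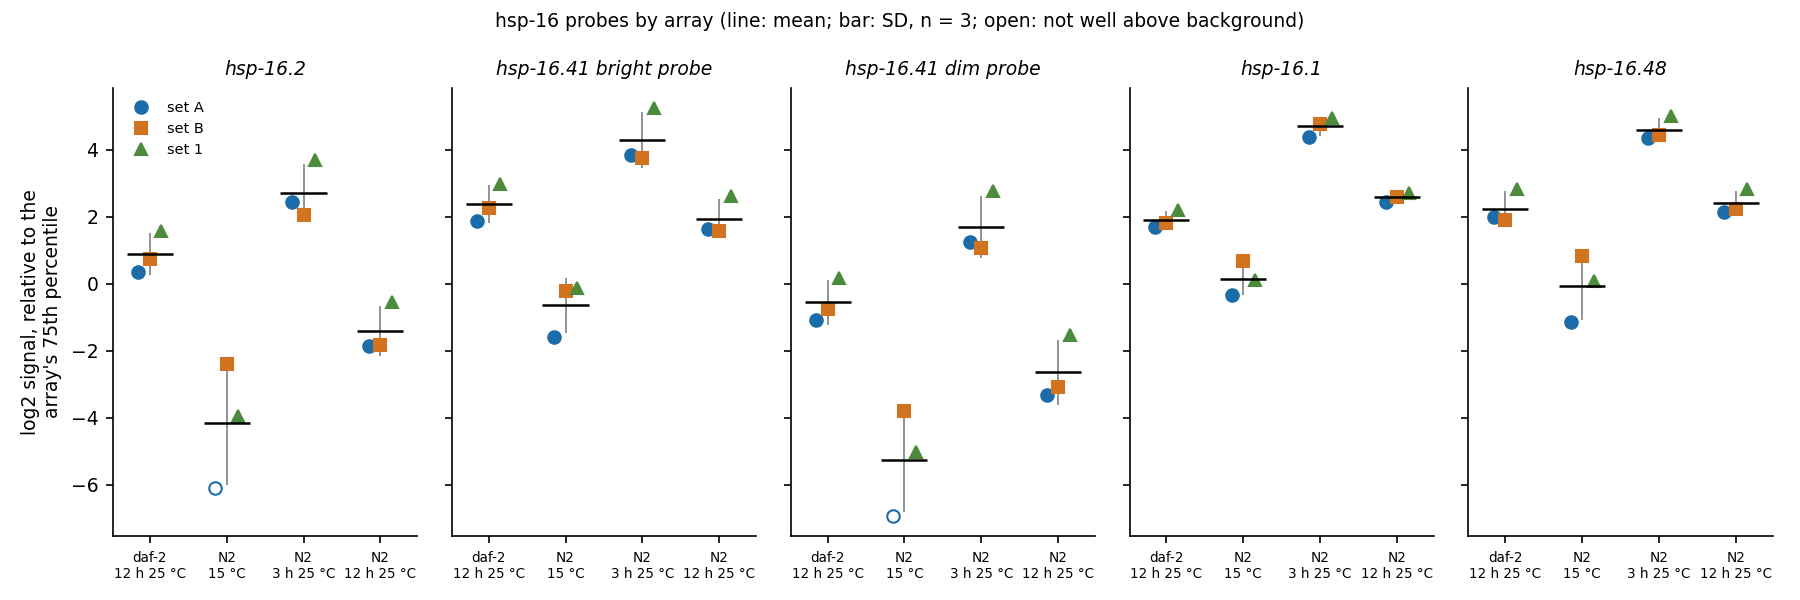
Log2 signal of each hsp-16 probe minus the array's 75th percentile (y axis), in daf-2 after 12 h at 25 °C and in N2 at 15 °C, after 3 h and after 12 h at 25 °C; each point is 1 array, the colour and shape give the replicate set, the line is the mean and the bar the SD (n = 3). The N2 arrays after 3 h are the highest for all 5 probes, and the 2 open points, hsp-16.2 and the dim hsp-16.41 probe in set A at 15 °C, were not well above background.

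After 3 h at 25 °C all 5 hsp-16 probes were higher than in N2 kept at 15 °C. The rise was 116-fold for hsp-16.2 and, at its neighbour hsp-16.41, 123-fold on the dim and 30.2-fold on the bright probe. It was 23.3-fold for hsp-16.1 and 25.7-fold for hsp-16.48. These were the 5 largest rises among the 26582 probes tested, here and under each of 3 other scalings. The others were quantile normalization, centring on the array median, and normexp. Normexp is a background correction of the raw signals with an offset of 50, followed here by quantile normalization. The order of the 5 rises was not fixed: the dim hsp-16.41 probe was first here. With normexp hsp-16.2 was first, followed by the bright and then the dim hsp-16.41 probe. In whole worms, more RNA per cell and more cells with the RNA cannot be told apart.

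The log2 change of hsp-16.2 was 6.86 ± 0.82 (SE, n = 3 per group; adjusted p = 0.00714, limma), with means of 2.72 ± 0.85 after 3 h and −4.14 ± 1.85 at 15 °C (SD). The dim probe of hsp-16.41 changed by 6.94 ± 0.79 (SE; adjusted p = 0.0052, limma) and the bright probe by 4.92 ± 0.52 (adjusted p = 0.00415, limma). Because both low values in set A at 15 °C were near background, the size of the hsp-16.2 and dim-probe rises rests partly on an array that could not measure them. With normexp the changes were 5.06 for hsp-16.2, 4.37 for the dim probe and 4.55 for the bright probe. The smallest error belonged to hsp-16.1, which changed by 4.54 ± 0.26 (adjusted p = 0.000139, limma), with means of 4.70 ± 0.29 and 0.15 ± 0.51 (SD). The change of hsp-16.48 was 4.68 ± 0.46 (adjusted p = 0.00334, limma).

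All 5 of 5 probes thus passed, where 0.399% of all tested probes passed as higher. With the replicate set as a term in the fit 5 of 5 passed too, where 2.29% of all probes passed in either direction. The groups did not overlap for 5 of 5, where 6.94% of probes had a 3 h group entirely above 15 °C. The rise differed between replicate sets: for hsp-16.2 it was 8.51, 4.43 and 7.62 on the log2 scale in sets A, B and 1, and for hsp-16.1 it was 4.71, 4.08 and 4.84. Set B had the smallest rise for all 5 probes. At 15 °C set B had the highest of the 3 signals for hsp-16.2, the dim hsp-16.41 probe, hsp-16.1 and hsp-16.48. Set B is also the set with the high sperm signal in N2, and the part of that in the hsp-16 values was not tested.

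When set A or set B was left out, 0 of 5 probes and 0 of all 26582 probes passed in limma, while all 5 kept an unadjusted p under 0.05. Without set 1, which leaves only sets A and B, scanned on 1 day, 2 of 5 passed.

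After 12 h at 25 °C all 5 hsp-16 probes had a higher mean than at 15 °C, and 3 of them passed. The log2 change was 2.43 ± 0.26 for hsp-16.1 (SE, n = 3; adjusted p = 0.00191, limma), 2.48 ± 0.46 for hsp-16.48 (adjusted p = 0.0222) and 2.57 ± 0.52 for the bright hsp-16.41 probe (adjusted p = 0.0356), which are folds of 5.39, 5.58 and 5.94. For hsp-16.2 the change was 2.73 ± 0.82 (adjusted p = 0.135) and for the dim hsp-16.41 probe 2.60 ± 0.79 (adjusted p = 0.137), and neither passed. These are 3 of 5 probes as higher, against 1.50% of all probes, and the groups did not overlap for 5 of 5, against 11.2%. The 5 changes lay close together with this scaling but not with normexp, where they were 1.42 for hsp-16.2 and 0.97 for the dim probe, against 2.19 to 2.24 for the other probes, and 2 of 5 passed.

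The 2 probes that did not pass were those with the wide spread at 15 °C, where the SD was 1.85 for hsp-16.2 and 1.57 for the dim probe, against 0.51 for hsp-16.1. In set B the hsp-16.2 difference between 12 h and 15 °C was 0.56, while it was 4.21 and 3.41 in sets A and 1. With the replicate set as a term in the fit (the replicate block), 4 of 5 passed, where 6.88% of all probes did: the dim probe passed (adjusted p = 0.0361, limma) and hsp-16.2 did not (adjusted p = 0.0525). Within sets A and B alone 1 of 5 passed, and 0 of 5 did when either of those sets was left out.

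All 5 hsp-16 probes had a lower signal after 12 h at 25 °C than after 3 h, and 3 of them passed. At 12 h hsp-16.2 stood at 5.72% of its 3 h signal and the dim hsp-16.41 probe at 4.95%, while hsp-16.1 stood at 23.1%, hsp-16.48 at 21.7% and the bright hsp-16.41 probe at 19.7%. The log2 change was −4.13 ± 0.82 for hsp-16.2 (SE, n = 3; adjusted p = 0.0474, limma), −4.34 ± 0.79 for the dim probe (adjusted p = 0.0357) and −2.11 ± 0.26 for hsp-16.1 (adjusted p = 0.00871). The changes of hsp-16.48 (−2.20 ± 0.46, adjusted p = 0.0525, limma) and of the bright probe (−2.35 ± 0.52, adjusted p = 0.0664) did not pass in this fit without the replicate block.

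Thus 3 of 5 probes passed as lower, against 0.312% of all probes, and the dim hsp-16.41 probe and hsp-16.2 had the largest and second largest fall of the 26582 probes, in the opposite order with normexp. The groups did not overlap for 5 of 5, against 6.89% of probes. Within a slide the differences were close to each other: hsp-16.48 differed by −2.22, −2.20 and −2.19 in sets A, B and 1, and hsp-16.2 by −4.30, −3.87 and −4.21. With the replicate block 5 of 5 passed (4.15% of all probes), with an adjusted p of 0.00715 for the bright probe and 0.0185 for hsp-16.48 (limma). With only the 2 groups compared in the fit, or only sets A and B, 0 of 5 passed, although all 5 had an unadjusted p under 0.05 in each. In the fit of all 12 arrays 2829 of the 26582 probes had such a p. Without single arrays or sets the count of hsp-16 probes that passed was 0 or 1.

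**Figure D2:**
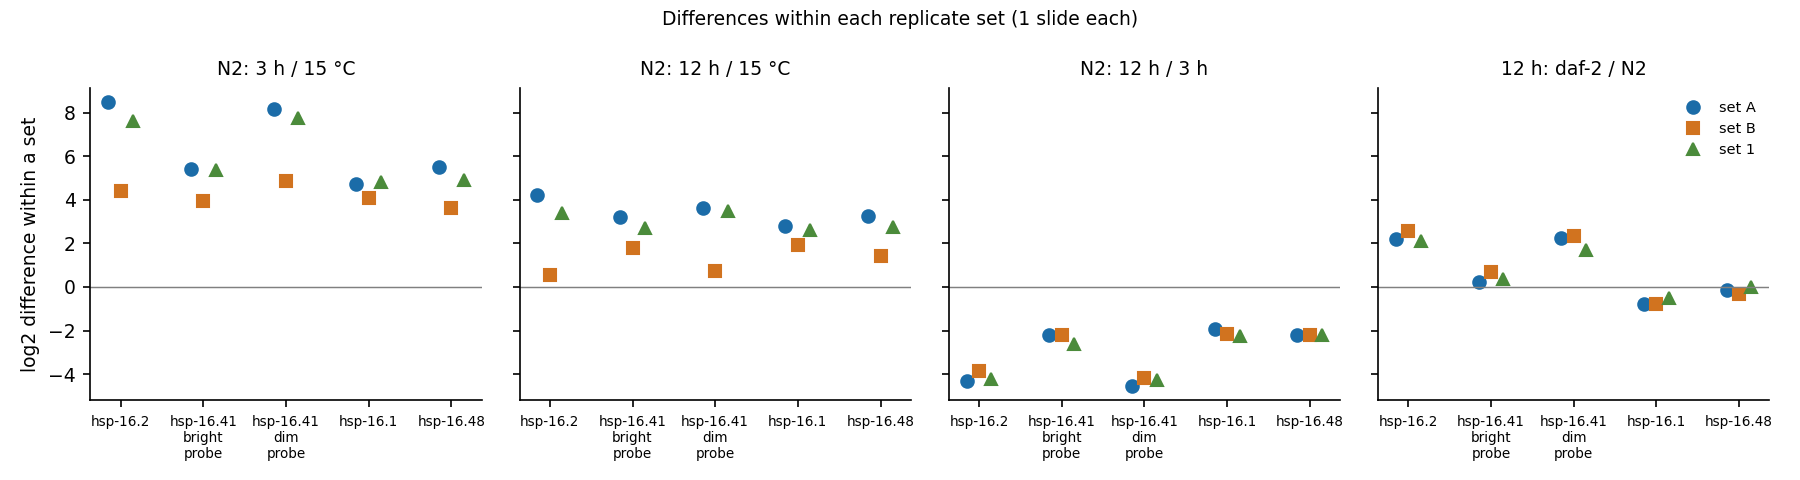
Log2 difference within each replicate set (y axis; 1 slide per set) for the 5 hsp-16 probes (x axis), for N2 at 3 h over 15 °C, N2 at 12 h over 15 °C, N2 at 12 h over 3 h, and daf-2 over N2 at 12 h; each point is the difference of 2 arrays. Set B has the smallest difference of every probe in both comparisons with 15 °C, and for every probe the 3 sets lie closer together in the last 2 panels than in the first 2.

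The next question was whether the hsp-16 genes differ between daf-2 and N2 after the same 12 h at 25 °C. Their differences ran in both directions. In daf-2 the signal was 4.9-fold that of N2 for hsp-16.2 and 4.25-fold for the dim hsp-16.41 probe, 1.35-fold for the bright hsp-16.41 probe, and 89.6% and 62.4% of N2 for hsp-16.48 and hsp-16.1. None of these differences passed in the fit of all 12 arrays without a block.

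The log2 change of hsp-16.2 was 2.29 ± 0.82 (SE, n = 3; 95% interval 0.47 to 4.11; adjusted p = 0.0785, limma) and that of the dim probe 2.09 ± 0.79 (0.34 to 3.83; adjusted p = 0.092). That of hsp-16.1 was −0.68 ± 0.26 (−1.26 to −0.10; adjusted p = 0.0965). The intervals of the bright probe (0.44, −0.73 to 1.60; adjusted p = 0.572) and of hsp-16.48 (−0.16, −1.17 to 0.85; adjusted p = 0.822) reached to both sides of 0. So 0 of 5 probes passed in limma, where 18.4% of all probes passed in either direction. An unadjusted p under 0.05 was found for 3 of 5, and for 9007 of the 26582 probes.

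The 3 sets agreed closely in these differences. For hsp-16.2 daf-2 exceeded N2 by 2.21, 2.55 and 2.12 on the log2 scale in sets A, B and 1, and for the dim probe by 2.23, 2.32 and 1.71. For hsp-16.1 it was below N2 by differences of −0.76, −0.76 and −0.52. The groups did not overlap for 3 of 5 probes, of which hsp-16.2 and the dim probe were higher (20.2% of all probes) and hsp-16.1 lower (21.4%), so such separation was common among all probes in this comparison. With the slide as a block these 3 probes passed, with adjusted p of 0.0331, 0.0262 and 0.0274 (limma), when 35.2% of all probes passed. Over all probes, deviations of the daf-2 and N2 arrays from their group means correlated at 0.377, −0.216 and 0.254 in sets A, B and 1. The set thus pairs these 2 groups weakly in A and 1 and not in B, so calls with and without the block are both given.

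**Figure D3:**
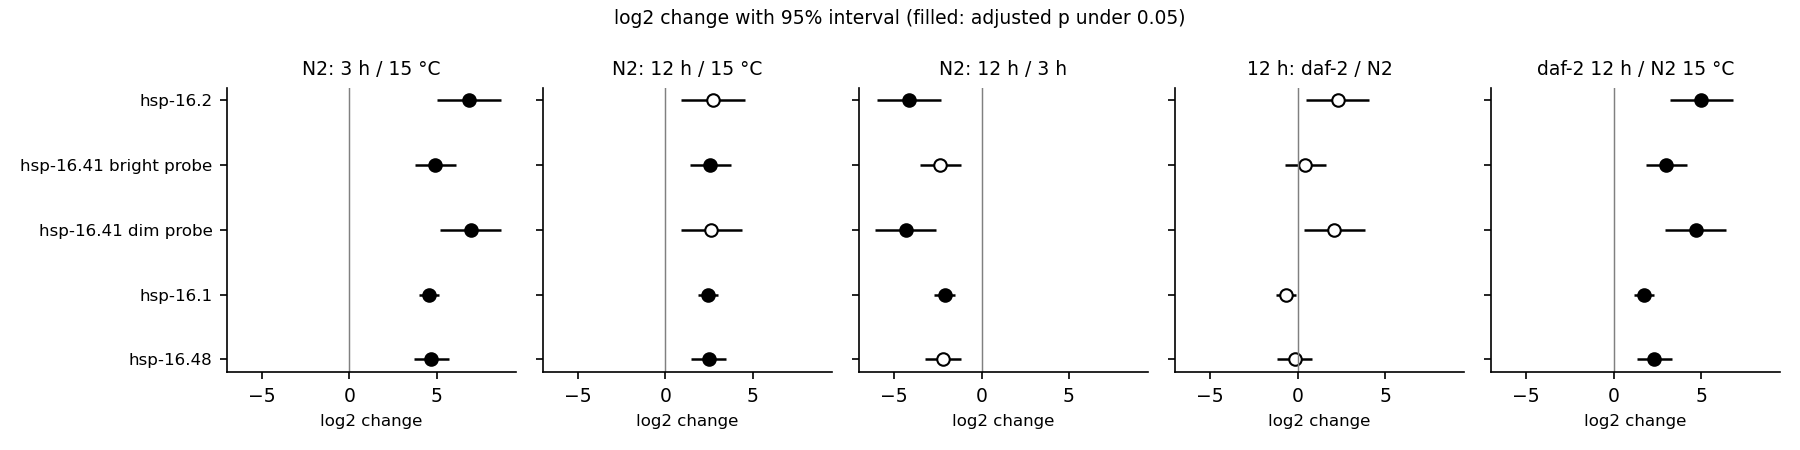
Log2 change of each hsp-16 probe (x axis) with its 95% interval in the 5 comparisons, the first-named group over the second; filled points passed at an adjusted p under 0.05 in limma. All 5 points are filled for N2 at 3 h over 15 °C and for daf-2 at 12 h over N2 at 15 °C, and all 5 are open for daf-2 over N2 at 12 h.

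Set against N2 kept at 15 °C, daf-2 worms after 12 h at 25 °C were higher for all 5 hsp-16 probes. The log2 change was 5.02 ± 0.82 for hsp-16.2 (SE, n = 3; 32.4-fold; adjusted p = 0.00127, limma), 4.69 ± 0.79 for the dim and 3.01 ± 0.52 for the bright hsp-16.41 probe, 2.32 ± 0.46 for hsp-16.48 and 1.75 ± 0.26 for hsp-16.1 (3.36-fold; adjusted p = 0.000744). This is 5 of 5 probes, where 19.3% of all probes passed as higher, and 5 of 5 without overlap, where 23.7% had a daf-2 group entirely above. Strain and temperature both differ here and cannot be told apart. The 15 °C arrays are those used above, so this comparison shares its reference arrays with the N2 comparisons.

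With the 75th-percentile scaling hsp-16.2 and the dim hsp-16.41 probe had larger differences than the other 3 probes in every comparison. At 12 h against 15 °C the gap was small (2.73 and 2.60, against 2.43 to 2.57). In the other comparisons the 2 probes of hsp-16.41 thus differed. The size of this difference depended on the background correction. The difference between the probes of hsp-16.41 within an array was compared between groups, as was that between hsp-16.2 and hsp-16.1; the pairs were chosen after their values were seen. Relative to hsp-16.1, hsp-16.2 was higher in daf-2 than in N2 at 12 h by 2.97 on the log2 scale (2.97, 3.32 and 2.63 in sets A, B and 1; 2.52 with normexp). Relative to the bright probe, the dim probe of hsp-16.41 was higher in daf-2 by 1.65 (1.98, 1.64 and 1.33; 0.79 with normexp). Since both probes are assigned to hsp-16.41, the deposited values alone do not settle the change of this gene. In an exact two-sided permutation test of 3 against 3 arrays, each gave p = 0.1, the smallest this design allows, and 0.25 after Benjamini-Hochberg adjustment over 25 such tests.

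After 3 h against 15 °C the within-array difference changed by 2.31 for hsp-16.2 over hsp-16.1 (3.80, 0.35 and 2.78 in sets A, B and 1) and by 2.02 for the dim over the bright hsp-16.41 probe (2.74, 0.92 and 2.41), with an exact permutation p of 0.1 each (adjusted 0.25). With normexp these values were 0.81 and −0.17, so the 2 probes of hsp-16.41 then changed by nearly the same amount. Between 12 h and 3 h in N2 the log2 change of hsp-16.2 relative to hsp-16.1 was −2.01 and that of the dim relative to the bright hsp-16.41 probe −1.99, without overlap of the arrays (exact permutation p = 0.1 each, adjusted 0.25), and with normexp these were −1.62 and −1.04. Between 12 h and 15 °C the means of 0.30 and 0.03 were averages over sets of opposite sign, 1.43, −1.35 and 0.81 for the first pair and 0.40, −1.05 and 0.76 for the second (exact permutation p = 0.9 and 1), and with normexp they were −0.82 and −1.22. For daf-2 at 12 h against N2 at 15 °C the second pair had 1.68, and 1.59 with quantile normalization alone. It turned to −0.43 with normexp, where the same offset applies. With the 75th-percentile scaling, in all 5 comparisons hsp-16.2 and the dim hsp-16.41 probe kept within 0.33 of each other, and hsp-16.48 and hsp-16.1 within 0.57.

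Over the 12 arrays hsp-16.2 correlated with the dim hsp-16.41 probe at r = 0.997, hsp-16.1 with hsp-16.48 at 0.979, the bright hsp-16.41 probe with hsp-16.48 at 0.978 and hsp-16.2 with hsp-16.1 at 0.867. These are descriptions over arrays that share slides and group means. The same pairs correlated at 0.985, 0.931, 0.862 and 0.895 in the deviations from the group means. Set 1 held the highest signal of all 5 probes in daf-2 after 12 h and in N2 after 3 h and 12 h. Set 1 is the slide scanned on the other day, whose part in this was not tested.

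The spread within groups was wider for most hsp-16 probes than for the typical probe. The within-group SD was 1.13 for hsp-16.2, 1.09 and 0.71 for the dim and bright hsp-16.41 probes, 0.62 for hsp-16.48 and 0.33 for hsp-16.1, against a median of 0.32 over all tested probes. Of all probes 94.4% had a smaller SD than hsp-16.2, and 52.4% a smaller one than hsp-16.1.

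Other small heat shock proteins gave a different picture. In the comparison of 3 h with 15 °C, 9 of 11 genes were well above background on every array of both groups. Of those 9, 1 rose (0.399% of all probes rose) and 0 fell. The gene that rose was hsp-17, which lies outside the hsp-16 clusters (2.65 ± 0.22, SE, n = 3, adjusted p = 0.00167, limma). The other genes, hsp-16.20 and hsp-16.21, did not pass. They were well above background on only 1 or 2 of 3 arrays of each N2 group, so a change in N2 was poorly measured. The median log2 change of the list was 0.09, beside 0.01 over all probes. Among those that did not pass, hsp-12.6 stood at −0.58, while sip-1, a small heat shock protein of oocytes and embryos, stood at −0.07. Between 12 h and 15 °C, 0 rose and 1 fell, hsp-12.6 (−1.24, adjusted p = 0.0222, limma; 0.703% of all probes fell), a call held by 4 of the 6 probes of the gene and lost with normexp (adjusted p = 0.0744) and with centring on the array median (0.0729). With the replicate block hsp-16.20 also passed as lower (−1.28, adjusted p = 0.0214); only 1 of 3 spots at 12 h and 2 of 3 at 15 °C were detected, and normexp gave −0.36. Between 12 h and 3 h, 0 rose and 1 fell, hsp-17 (−2.88 ± 0.22, adjusted p = 0.00147, limma), where 0.312% of all probes fell. At 12 h hsp-17 thus had a mean of 1.37 against 1.60 at 15 °C.

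In daf-2 against N2 at 12 h, 9 of these 11 genes were detected well above background on each array of either group, and of those 3 rose and 0 fell, where 3278 of the 26582 probes rose. Their median log2 change was 0.19, beside −0.13 over all probes. The largest was that of hsp-12.3 (4.25 ± 0.34, SE, n = 3; adjusted p = 4.45e-05, limma), followed by hsp-12.6, a target of DAF-16 (2.78 ± 0.23, and 1.51 with normexp), and hsp-12.1 (1.57 ± 0.45), while hsp-17 stood at 0.12 ± 0.22. All 6 probes of hsp-12.3 and all 6 of hsp-12.6 passed.

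The other genes of this list, hsp-16.20 and hsp-16.21, are more distant genes of the hsp-16 type. Both were well above background on 3 of 3 daf-2 arrays, against 1 of 3 N2 arrays at 12 h, so they entered the fit through daf-2 and the size of their change was set by near-background signal in N2. For hsp-16.21 the change was 4.28 ± 0.47 (SE; adjusted p = 0.000279, limma), and 1.47 with normexp. For hsp-16.20 it was 1.73 ± 0.40 (adjusted p = 0.0139), and 0.40 with normexp, where it did not pass (adjusted p = 0.0558).

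In daf-2 at 12 h against N2 at 15 °C, 3 of the 9 genes rose, hsp-12.3 by 4.79, hsp-12.1 by 2.54 and hsp-12.6 by 1.54, and 0 fell, where 19.3% of all probes rose and 14.2% fell. The value of hsp-16.21, again measured on 1 of 3 arrays at 15 °C, was 4.28, and 1.47 with normexp.

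**Figure D4:**
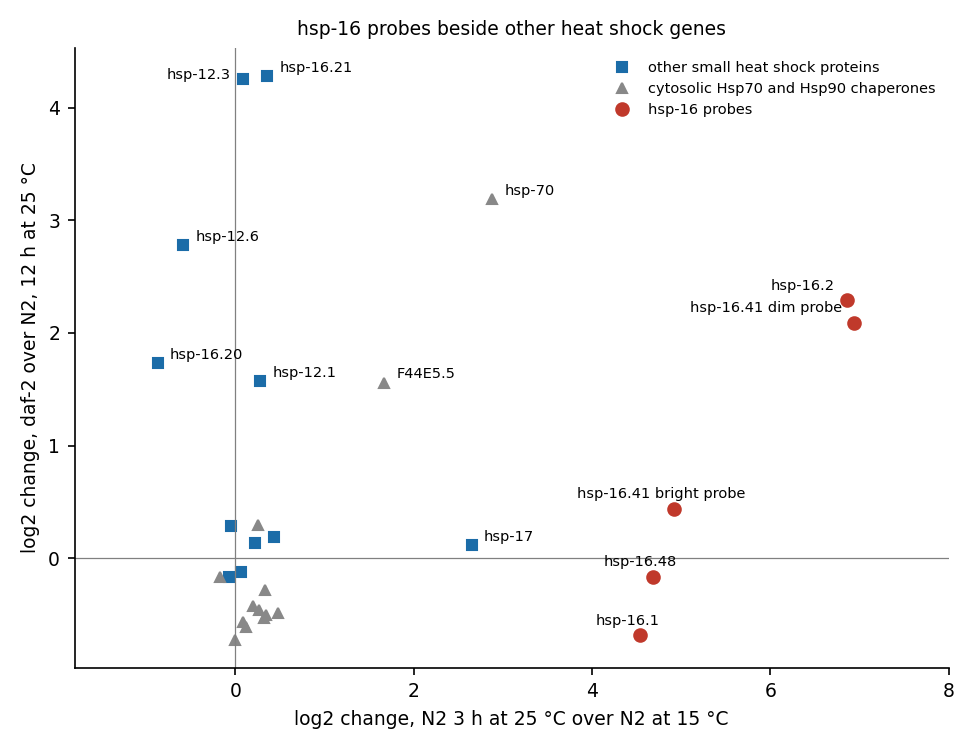
Log2 change of N2 after 3 h at 25 °C over N2 at 15 °C (x axis) and of daf-2 over N2 after 12 h at 25 °C (y axis), which share no array, for the 5 hsp-16 probes (red circles), 11 other small heat shock protein genes (blue squares) and 13 cytosolic Hsp70 and Hsp90 genes (grey triangles), with the genes of larger change named. The hsp-16 probes lie far to the right, hsp-12.3 and hsp-16.21 lie high on the y axis with an x value near 0 (hsp-16.21 was well above background on 1 of 3 arrays in each N2 group), and hsp-70 is high on both.

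Cytosolic Hsp70 and Hsp90 chaperones and their partners act downstream of the small heat shock proteins. After 3 h 0 of 13 passed in either direction (limma), with 3 at an unadjusted p under 0.05. At 12 h against 15 °C 0 of 13 passed, with 1 unadjusted. Of all 26582 probes 146 and 586 passed in these comparisons, and 2256 and 3794 had an unadjusted p under 0.05. So few passed that 0 of 13 does not set this list apart. The inducible hsp-70 had the largest change after 3 h, 2.88 ± 0.71 (SE, n = 3), with an adjusted p of 0.129. F44E5.5, another Hsp70 gene, had 1.67 ± 0.72 (adjusted p = 0.555). The constitutive hsp-1 had 0.12 and hsp-90 had 0.27, and the median of the list was 0.27 beside 0.01 over all probes. Between 12 h and 3 h, 1 fell, hsp-70 (−3.56 ± 0.71, adjusted p = 0.0474, limma), where 0.312% of all probes fell, and 0 rose. With the replicate block sti-1, which links Hsp70 to Hsp90, passed as well (−0.71, adjusted p = 0.0491).

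In daf-2 against N2 at 12 h, 1 of 13 rose, hsp-70 (3.19 ± 0.71, SE, adjusted p = 0.0113, limma), where 3278 of the 26582 probes rose. Another 4 fell, where 6.08% of all probes fell. These were hsp-110, an Hsp70 nucleotide exchange factor (−0.72), hsp-1 (−0.61), ahsa-1, an activator of the Hsp90 ATPase (−0.50), and hsp-90 (−0.46). With the replicate block dnj-12, dnj-13, dnj-19 and sti-1 also passed as lower (adjusted p = 0.0299, 0.0173, 0.0456 and 0.0472, limma). In that fit 35.2% of all probes passed in either direction. The list median was −0.46 beside −0.13 over all probes. The hsp-70 rise passed under each of 3 other scalings. The falls of hsp-1 and hsp-90 passed under none of them, hsp-90 changing by −0.10 with quantile normalization. That of hsp-110 was lost with the array median (adjusted p = 0.107) and that of ahsa-1 with quantile normalization and the array median (0.0772 and 0.164). Centring on the array median moved all probes of this comparison by −0.24. In daf-2 at 12 h against N2 at 15 °C, 1 of 13 rose (hsp-70, 2.52), where 19.3% of all probes rose. In the same comparison 5 fell (14.2% of all probes fell), hsp-110 by the most (−1.26). With the replicate block dnj-12, dnj-13 and dnj-19 also passed as lower (adjusted p = 0.0215, 0.0256 and 0.0255, limma), where 49.3% of all probes passed in either direction. The changes of hsp-70 and hsp-110 passed under each of the 3 other scalings. The falls of hsp-1, hsp-90, sti-1 and ahsa-1 did not: hsp-1 was lost with quantile normalization and normexp (adjusted p = 0.0921 and 0.111), as was hsp-90 (−0.03 and −0.01). That of sti-1 was lost under all 3 (adjusted p 0.0633 to 0.0823), and that of ahsa-1 with quantile normalization and the array median (0.0572 and 0.0687).

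Of 6 transcripts of HSF-1 and its regulators, 0 passed in limma after 3 h, at 12 h against 15 °C and at 12 h against 3 h, with 1 at an unadjusted p under 0.05 in each. Of all 26582 probes 146, 586 and 298 passed in these comparisons, and 2256, 3794 and 2829 had an unadjusted p under 0.05. So few passed that 0 of 6 does not set this list apart. With the replicate block pqm-1, a zinc finger factor of stress responses, passed at 12 h against 15 °C (0.46, adjusted p = 0.0487). In daf-2 against N2 at 12 h 0 passed too, where 18.4% of all probes did. There 2 had an unadjusted p under 0.05, pqm-1 (0.57) and ddl-2 (−0.47), as did 9007 of the 26582 probes. Both passed with quantile normalization (adjusted p = 0.0424 and 0.0446, limma), normexp (0.0181 and 0.0434) and the replicate block (0.00664 and 0.0469). With that block 35.2% of all probes passed. Neither passed with centring on the array median (adjusted p = 0.315 and 0.144, limma). The largest change after 3 h was that of pqm-1 (0.86 ± 0.19, SE; adjusted p = 0.0854, and 0.0115 with the replicate block), while hsf-1 had −0.21 ± 0.22 and daf-16 had 0.09 ± 0.13. In daf-2 at 12 h against N2 at 15 °C, pqm-1 rose (1.02, where 19.3% of all probes rose). There ddl-2, a component of the complex that inhibits HSF-1, fell (−0.78, where 14.2% fell), and hsf-1 stood at −0.43 (adjusted p = 0.153, limma). With the replicate block ddl-1, also on this list, passed as lower (−0.46, adjusted p = 0.0488, limma), where 49.3% of all probes passed in either direction. These are transcript levels and do not measure HSF-1 or DAF-16 activity.

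The genes whose log2 signals most resembled the mean profile of the 4 hsp-16 genes over the 12 arrays, of 7962 genes compared, were dnj-7 (r = 0.932), hsp-3 (0.917), lips-10 (0.911), smim-14 (0.907), swt-7 (0.895) and clc-19 (0.887). dnj-7 is a J-domain co-chaperone and hsp-3 an Hsp70, both of the endoplasmic reticulum. After 3 h their changes ranged from 0.53 for swt-7 to 2.22 for clc-19 (adjusted p = 0.0835), with 1.42 for lips-10, against 4.54 to 6.94 for the hsp-16 probes. Of these genes dnj-7 changed by 0.99 (adjusted p = 0.0115, limma), smim-14 by 1.09 (adjusted p = 0.0114) and hsp-3 by 0.63 (adjusted p = 0.0621). The genes were picked for their likeness to the hsp-16 profile on these same arrays. That choice favours low p-values after 3 h, so these are no separate test. The likeness lay mainly in the group means for dnj-7, hsp-3 and smim-14, whose correlation in the deviations within groups was 0.156, 0.0778 and −0.0317, while it was 0.669 for lips-10, 0.662 for clc-19 and 0.46 for swt-7.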

How the data were processed

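Total RNA of whole worms was labelled with Cy3 per the labels' protocols, and 12 arrays were extracted with Agilent Feature Extraction 10.10.1.1 per the file headers. The deposited processed signal is a linear intensity, background-subtracted and spatially detrended by that software, not scaled between arrays. Per the file headers the deposited raw intensity values are spot and local background medians, and the deposited flags (0 or 1) tell which spots were saturated, uneven or well detected. The series table holds the authors' intensity values, which are the processed signal multiplied by an array constant, for 24939 or 35344 probes. The array design cites an older build, so gene names and neighbours come from the RefSeq table of assembly WBcel235; 34320 probes matched 19814 genes and 9283 matched none.

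Of 45220 spots, 1417 controls were left out and repeated spots averaged. The log2 of the deposited processed intensity was taken and each array's 75th percentile subtracted. The 26582 probes detected well above background on every array of 1 or more groups were kept. Of the 60 spots of the hsp-16 probes, 58 were well above background and 0 saturated or uneven. limma 3.58.1 in R 4.3.3 fitted 1 mean per group over all 12 arrays, with two-sided tests, Benjamini-Hochberg adjustment over all probes and a threshold of 0.05. Listed genes use their brightest tested probe. The fit was checked on simulated data. Python 3.11.15 with pandas 2.3.3, scipy 1.17.1 and matplotlib 3.10.9 made tables, exact tests and plots. The number of arrays limits the precision.

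Named genes are the hsp-16 probes, the 6 genes most like them, 3 chaperone and regulator lists with up to 4 genes each per comparison, and fixed genes including hsp-70, hsp-17, hsp-12.6, sip-1, hsf-1, daf-16, daf-2 and sod-3; other names were chosen after their values were seen. The members and lists were chosen with earlier results of these data known. Replicate sets were taken from the titles. Deviations from group means correlated within a set at 0.453 to 0.861 in the N2 comparisons, which are therefore paired. In the daf-2 comparisons they correlated at 0.159 to 0.377 in sets A and 1 but at −0.216 and −0.46 in set B. The main fit had no block and so ignored the pairing of the N2 arrays. For the hsp-16 probes the calls with the replicate block are therefore given beside it. Alternatives covered scaling, background correction, the series table, filters, probe choice, blocks, arrays in the fit and the variance prior.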

Additional observations from a re-analysis of the deposited data

How the results depend on the processing

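The count of hsp-16 probes passing (of 5) differed between settings, and the cause was not tested. For N2 at 3 h over 15 °C (5) it was 3 of 3 tested when probes had to be well above background on all 12 arrays, 2 within sets A and B, scanned on 1 day, and 0 with only the 2 groups in the fit (0 of 26582 probes, 5 at an unadjusted p under 0.05, limma). For 12 h over 15 °C (3) it was 1 with no filter on detection, with only the 2 groups, and within sets A and B. For 12 h over 3 h (3) it was 5 with the replicate block, with the array median and with scan day as a block, 1 with no filter, and 0 with only the 2 groups or within sets A and B (5 unadjusted in each). For daf-2 over N2 at 12 h (0) it was 3 with the replicate block, 2 with scan day as a block, and 1 with normexp, with the array median and with only the 2 groups. For daf-2 at 12 h over N2 at 15 °C (5) it was 3 of 3 tested with detection required on all 12 arrays. Leaving out arrays or sets gave 0 to 5, 0 to 3, 0 to 1, 0 to 0 and 5 to 5 in that order of comparisons. Leaving out set 1 keeps the same arrays as the fit within sets A and B. The first was 0 without set A or set B and 2 without set 1. The second was 0 without set A or set B, and the third 0 without the N2 12 h array of set A or any whole set. The hsp-16.48 difference of daf-2 over N2 at 12 h (−0.16), which ranged from −0.46 to 0.05 as arrays were left out, turned to 0.03 with quantile normalization, 0.02 without the daf-2 array of replicate B and 0.05 without the N2 12 h array of replicate 1. Of 510 changes of single probes recomputed, 408 kept direction and call, 78 lost the call, 21 gained it and 3 turned. Normexp narrowed the dim-probe rise at 3 h to 4.37 and that of hsp-16.2 to 5.06, on the log2 scale. Near background, at 15 °C, signal limits the size of both.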
